A study of Mus musculus with 6 samples.

Results

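The genes described here build triglycerides in fat cells and handle the glycerol they are built on. They were 9 of the 46517 genes counted, namely *Pck1*, *Gpd1*, *Gpd2*, *Aqp7*, *Gpam*, *Agpat2*, *Lpin1*, *Dgat1* and *Dgat2*, taken by symbol from the GENCODE annotation of GRCm38. Counts were above the expression filter (at least 1 cpm in at least 1 sample) for all 9.

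Inguinal white adipose tissue (IngWAT) was profiled by RNA-seq in floxed and H3atKO mice, 3 samples per genotype. Both genotypes carried the floxed *Hdac3* allele, and H3atKO mice also carried an Adipoq-cre transgene, in which the adiponectin promoter drives the Cre recombinase in adipocytes, so that cells of other types in the tissue keep the gene. All mice were on a C57Bl6 background, were 5 to 9 months old and ate chow. Every sample was a pool of total RNA from 2 or 3 mice of 1 genotype, 500 ng in all, so the p-values below measure the spread between pools and not between mice. The comparison set here, H3atKO against floxed, bears on whether transcripts for putting fatty acids back onto glycerol moved together with those for releasing them.

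A triglyceride is made by attaching fatty acids one after another to glycerol 3-phosphate. The acyltransferases GPAM and AGPAT2 add the first chains, lipin removes the phosphate, and the DGAT enzymes add the last chain. The glycerol 3-phosphate comes from glucose through GPD1, from pyruvate through PCK1 (glyceroneogenesis) or from free glycerol through glycerol kinase, which white adipocytes are known to express weakly, so that most glycerol freed by lipolysis leaves the cell through the channel AQP7.

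*Hdac3* itself was measured at 68.9, 80.3 and 65.8 cpm in floxed samples 1 to 3 and at 27.4, 21.1 and 12.9 cpm in H3atKO samples 1 to 3, where cpm stands for TMM-scaled counts per 1000000 counted reads. The log2 fold change was -1.83 ± 0.32 (SE), with a limma voom adjusted p of 0.0213, and every H3atKO sample was below every floxed sample. Between 23865507 and 35200685 reads were counted on genes per sample. Libraries of the genotypes stood apart: mitochondrial genes took 6.92% to 12.9% of counts in floxed and 26.9% to 35.3% in H3atKO samples, TMM factors were 1.30 to 1.37 and 0.663 to 0.921, and the Spearman correlation, across genes, of a sample's deviation from the gene mean with GC content ran from 0.0969 to 0.800 in floxed and from -0.711 to -0.433 in H3atKO samples. GC content and genotype therefore cannot be told apart in these libraries, and fold changes below are also given after a correction for GC content where that changes the call or direction. A genotype effect that itself follows GC content is taken out by the correction too.

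Of the 9 genes, 3 were upregulated in H3atKO IngWAT, namely *Gpd2*, *Gpam* and *Lpin1*, and 0 were down-regulated, by limma voom at an adjusted p under 0.05. Over all 14967 genes tested, 9.42% were upregulated and 7.07% down-regulated. The median log2 fold change was -0.04 over the 9 genes and -0.09 over all genes tested. At an unadjusted p under 0.05 the same fit gave 3 up and 1 down (*Aqp7*), against 20.4% and 23.4% of all genes. By edgeR 3 were up and 0 down (12.8% and 18.4% of all genes), and by DESeq2 3 were up and 0 down (19.6% and 23.2% of all genes). When the replicate number of the labels entered the fit as a block, the same test gave 3 up and 1 down (*Aqp7*), while calls over all genes rose to 24.8% up and 28.7% down. After the GC correction 4 of the 9 were up (the same 3 and *Agpat2*) and 0 down, against 5.55% and 3.06% of all genes, and 8 of the 9 had a positive log2 fold change, with a median of 1.27 against 0.03 over all genes. Adding the block to that correction, 6 were up and 0 down (13.1% and 9.71% of all genes), *Gpd1* and *Dgat2* being added. The plot of fold changes shows both sets of values. Scaling by library size alone moved the median of all genes from -0.09 to -0.94. Under that scaling 0 of the 9 were up and 2 were down (*Pck1* and *Aqp7*), against 2.04% and 37.9% of all genes, and *Gpd2*, *Gpam* and *Lpin1* had log2 fold changes of 0.94, 0.45 and 0.13, all above that median.

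**Figure D1:**
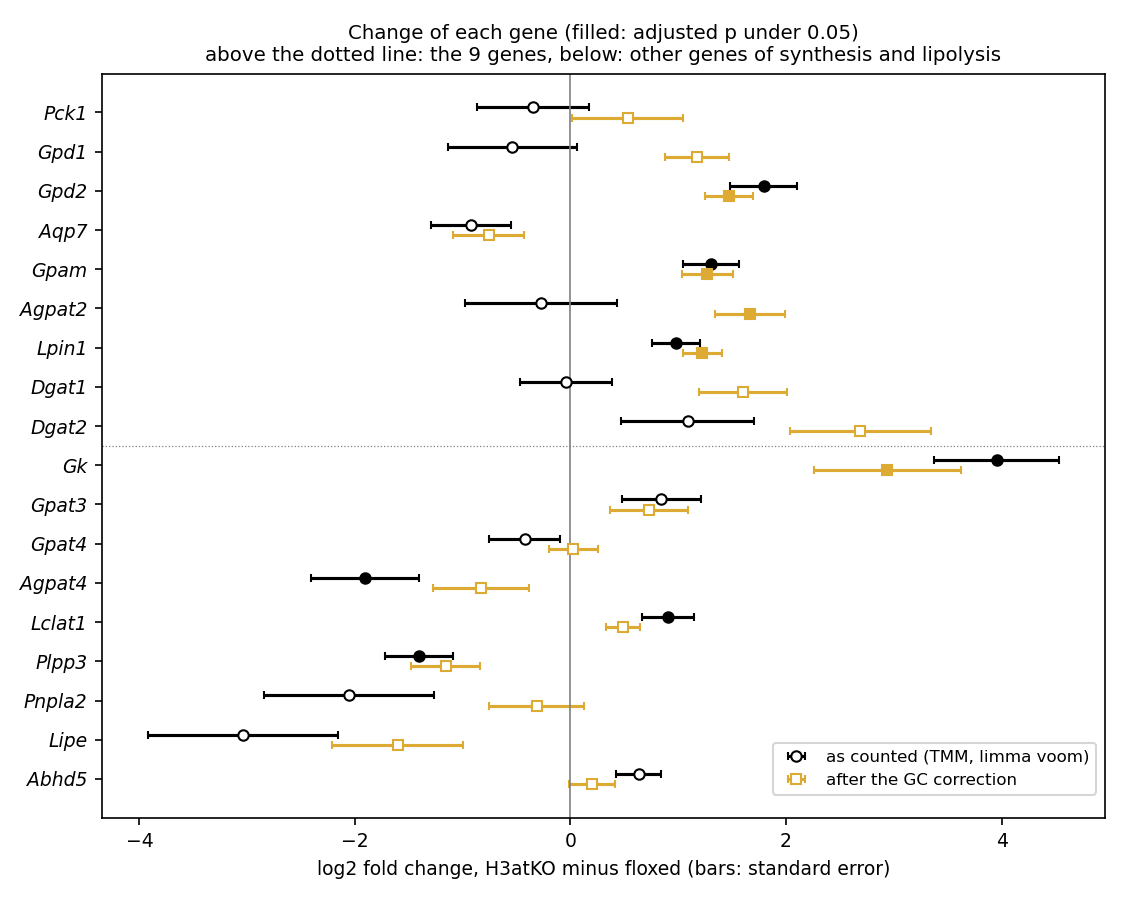
Log2 fold change (H3atKO minus floxed, horizontal axis) of the 9 genes, above the dotted line, and of 9 other genes of synthesis and lipolysis, below it, with bars for the standard error. Black circles are the values as counted and yellow squares those after the GC correction, filled where the adjusted p is under 0.05; *Gpd2*, *Gpam* and *Lpin1* stay near their place under the correction (1.80, 1.30 and 0.98 against 1.47, 1.27 and 1.22), whereas *Agpat2*, *Dgat1* and *Gpd1* cross from below 0 to above 1.

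Values of the 9 genes in each sample are drawn in the plot of cpm by sample. In bulk tissue such as this, fewer cells of a type and less RNA per cell cannot be told apart.

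**Figure D2:**
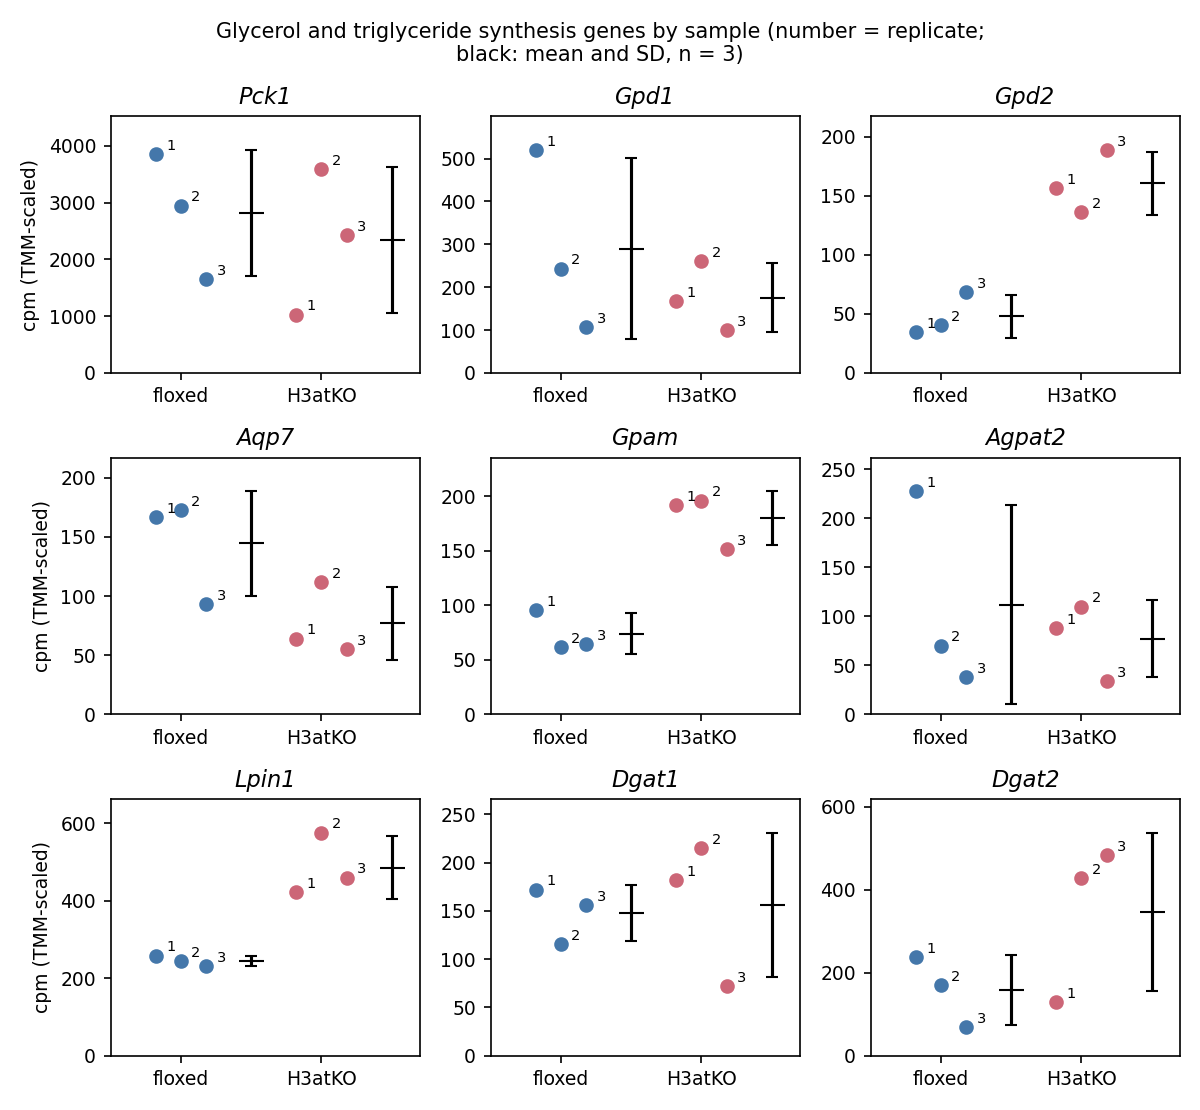
Expression of each of the 9 genes (vertical axis, TMM-scaled cpm from 0) in floxed (blue) and H3atKO (red) samples, numbered by replicate, with black bars for the mean and SD (n = 3). All 3 H3atKO samples lie above all 3 floxed samples for *Gpd2*, *Gpam* and *Lpin1*, and the genotypes overlap for the other 6 genes. The share of all genes without overlap was not counted, so the overlap only describes these 9 genes. By another measure, an unadjusted p under 0.05 by limma voom, 20.4% of all genes were up and 23.4% down.

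Promoters of the upregulated genes are shown here because *Gpd2*, *Gpam*, *Lpin1* and *Gk*, the glycerol kinase gene, were each upregulated, and that of *Pck1* because it is the most abundant of the 9 genes and did not pass the test. Each window runs from 250 bases before to 50 bases after a RefSeq start site, on GRCm38.p6, 5′ to 3′ on the strand of the gene. A window was given for 6 of the 9 genes, with 2 start sites for *Gpd2*, *Gpam* and *Aqp7*. Letters are in capitals where a motif was found on either strand. The motifs searched were the TATA box, spelled TATAAA, the CCAAT box, whose name gives its letters, the E-box, spelled CACGTG, the nuclear receptor half-site, spelled AGGTCA, the element DR1, which is that half-site repeated in the same direction with 1 base between, the half-site of the cAMP response element (CRE), spelled TGACG, and the GC box, spelled GGGCGG. DR1 matches also count as half-sites.
Gpd2, upstream start, chr2:57237428-57237727, plus strand: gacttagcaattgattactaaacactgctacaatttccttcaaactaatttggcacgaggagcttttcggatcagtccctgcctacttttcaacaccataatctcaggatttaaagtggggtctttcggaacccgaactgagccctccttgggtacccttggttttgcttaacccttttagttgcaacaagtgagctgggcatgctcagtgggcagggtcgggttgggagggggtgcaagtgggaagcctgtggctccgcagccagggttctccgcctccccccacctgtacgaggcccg
Gpd2, downstream start, chr2:57238132-57238431, plus strand: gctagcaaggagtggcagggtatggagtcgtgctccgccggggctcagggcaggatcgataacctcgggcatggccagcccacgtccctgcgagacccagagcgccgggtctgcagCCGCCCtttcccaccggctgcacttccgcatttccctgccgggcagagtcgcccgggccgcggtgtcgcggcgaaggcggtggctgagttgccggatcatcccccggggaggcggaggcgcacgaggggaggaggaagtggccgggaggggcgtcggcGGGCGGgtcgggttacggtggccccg
Gpam, upstream start, chr19:55127189-55127488, minus strand: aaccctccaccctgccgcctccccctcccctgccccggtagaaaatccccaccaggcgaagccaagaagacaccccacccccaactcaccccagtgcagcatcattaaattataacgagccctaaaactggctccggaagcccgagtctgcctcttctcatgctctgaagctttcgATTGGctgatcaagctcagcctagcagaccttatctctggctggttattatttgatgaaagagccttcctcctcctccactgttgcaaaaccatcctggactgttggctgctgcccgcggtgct
Gpam, downstream start, chr19:55099428-55099727, minus strand: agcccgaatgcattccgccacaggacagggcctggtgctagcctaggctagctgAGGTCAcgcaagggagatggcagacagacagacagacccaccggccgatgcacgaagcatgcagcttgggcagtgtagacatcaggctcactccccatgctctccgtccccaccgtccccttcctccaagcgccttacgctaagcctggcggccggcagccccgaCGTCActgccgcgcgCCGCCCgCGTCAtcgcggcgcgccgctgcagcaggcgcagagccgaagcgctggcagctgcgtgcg
Lpin1, chr12:16610917-16611216, minus strand: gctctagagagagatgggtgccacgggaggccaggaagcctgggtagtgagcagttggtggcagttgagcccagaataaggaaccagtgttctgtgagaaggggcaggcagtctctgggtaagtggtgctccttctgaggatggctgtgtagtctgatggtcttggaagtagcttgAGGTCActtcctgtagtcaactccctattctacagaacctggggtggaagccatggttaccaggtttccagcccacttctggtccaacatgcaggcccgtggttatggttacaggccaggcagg
Gk, chrX:85776770-85777069, minus strand: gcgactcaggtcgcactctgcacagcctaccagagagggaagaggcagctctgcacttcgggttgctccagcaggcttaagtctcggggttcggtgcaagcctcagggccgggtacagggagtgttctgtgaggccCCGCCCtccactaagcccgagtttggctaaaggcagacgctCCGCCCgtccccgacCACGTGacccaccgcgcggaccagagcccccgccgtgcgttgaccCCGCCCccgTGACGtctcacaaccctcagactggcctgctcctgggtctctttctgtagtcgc
Pck1, chr2:173152823-173153122, plus strand: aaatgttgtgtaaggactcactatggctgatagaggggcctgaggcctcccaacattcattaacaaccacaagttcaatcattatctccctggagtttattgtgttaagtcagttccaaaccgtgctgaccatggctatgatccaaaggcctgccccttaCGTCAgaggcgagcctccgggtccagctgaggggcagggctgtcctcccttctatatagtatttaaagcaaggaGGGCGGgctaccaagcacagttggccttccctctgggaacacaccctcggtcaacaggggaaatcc
No motif of the 7 was found in windows of all 4 upregulated genes. *Lpin1* has 1 receptor half-site, 74 bases before its start, in a window with 2 CpG. The downstream *Gpam* window also has 1 receptor half-site, with 2 CRE half-sites and 1 GC box, in a window with 30 CpG. A CCAAT box was found in the upstream *Gpam* window, none of the 7 in the upstream *Gpd2* window and 2 GC boxes in the downstream one. *Gk* holds an E-box, a CRE half-site and 3 GC boxes, and *Pck1* holds a CRE half-site and a GC box. The TATA box and DR1 were in no window of the 6 genes. Of 32851 windows of the same length, 13.6% hold the TATA box, 37.4% the CCAAT box, 7.15% the E-box, 16.3% the receptor half-site, 0.0396% DR1, 20.8% the CRE half-site and 35.7% the GC box. These matches describe the letters of the windows, and binding was not measured here.

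*Pck1* encodes the cytosolic phosphoenolpyruvate carboxykinase, the enzyme that commits carbon to glyceroneogenesis, and lies at chr2:173153048-173159273 (plus strand). It measured 3861, 2947 and 1648 cpm in floxed samples 1 to 3 and 1027, 3592 and 2423 cpm in H3atKO samples 1 to 3. The lowest and the second highest of the 6 values were both H3atKO samples, and the genotypes overlapped. The log2 fold change of *Pck1* was -0.35 ± 0.52 (SE; 95% interval -1.56 to 0.86), with an adjusted p of 0.619 by limma voom, and it was 0.53 after the GC correction (adjusted p = 0.51 by limma voom).

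*Gpd1* encodes the cytosolic glycerol 3-phosphate dehydrogenase, which makes glycerol 3-phosphate from a glycolytic intermediate (chr15:99717515-99725005, plus strand). Floxed samples 1 to 3 had 521, 243 and 106 cpm, and H3atKO samples 1 to 3 had 167, 261 and 99.5 cpm. The floxed samples alone spanned nearly the whole range, and sample 3 was the lowest of each genotype. For *Gpd1* the log2 fold change was -0.54 ± 0.60 (SE; 95% interval -1.93 to 0.85), with an adjusted p of 0.499 by limma voom. After the GC correction it was 1.17, with an adjusted p of 0.0553, and adding the replicate block to that correction gave 1.19, with an adjusted p of 0.0349 by limma voom. Without floxed sample 1, where *Gpd1* was highest, the uncorrected log2 fold change was 0.02.

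*Gpd2* encodes the mitochondrial glycerol 3-phosphate dehydrogenase, which oxidises glycerol 3-phosphate at the inner membrane and, with GPD1, forms the glycerol phosphate shuttle (chr2:57237635-57370719, plus strand). Its expression was 34.6, 40.7 and 68.6 cpm in floxed samples 1 to 3 and 157, 136 and 189 cpm in H3atKO samples 1 to 3. Every H3atKO sample was above every floxed sample. *Gpd2* rose 3.47-fold, a log2 fold change of 1.80 ± 0.31 (SE; 95% interval 1.07 to 2.52), with an adjusted p of 0.0213 by limma voom. Uncorrected, this was the largest change among the 9 genes. Its GC-corrected value was 1.47 (adjusted p = 0.0195 by limma voom), below those of *Dgat2*, *Agpat2* and *Dgat1*. The adjusted p was above 0.05 when floxed sample 1 (0.0642), floxed sample 2 (0.107), H3atKO sample 1 (0.0622) or H3atKO sample 3 (0.0861) was left out.

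*Aqp7* encodes the aquaglyceroporin through which adipocytes release glycerol (chr4:41033074-41048139, minus strand). It was at 167, 173 and 93.4 cpm in floxed samples 1 to 3 and at 64.0, 112 and 54.9 cpm in H3atKO samples 1 to 3. The genotypes overlapped through H3atKO sample 2, which was above floxed sample 3, although within every replicate number the H3atKO sample was the lower one. The log2 fold change of *Aqp7* was -0.92 ± 0.37 (SE; 95% interval -1.78 to -0.06), with an adjusted p of 0.0989 by limma voom and of 0.0149 with the replicate block. Corrected for GC content it was -0.76 (adjusted p = 0.172 by limma voom), or -0.76 with an adjusted p of 0.0545 when the block was kept as well. *Aqp7* was the 1 gene of the 9 with a negative value under the GC correction.

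Among the acyltransferases, *Gpam* encodes the mitochondrial glycerol 3-phosphate acyltransferase, which adds the first fatty acid (chr19:55067268-55127238, minus strand). It was measured at 95.3, 61.9 and 64.2 cpm in floxed samples 1 to 3 and at 192, 196 and 151 cpm in H3atKO samples 1 to 3. The lowest H3atKO sample was above the highest floxed sample. *Gpam* rose 2.47-fold (log2 fold change 1.30 ± 0.26 (SE), 95% interval 0.69 to 1.91), with an adjusted p of 0.0271 by limma voom, and by 1.27 on the log2 scale after the GC correction (adjusted p = 0.0283). Its adjusted p was above 0.05 without floxed sample 2 (0.124), H3atKO sample 1 (0.0796), H3atKO sample 2 (0.0693) or H3atKO sample 3 (0.0790).

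*Agpat2* encodes the acyltransferase that adds the second fatty acid, and its loss is known to cause a lack of adipose tissue (chr2:26593057-26604417, minus strand). Its values were 228, 70.1 and 37.9 cpm in floxed samples 1 to 3 and 87.8, 109.8 and 34.1 cpm in H3atKO samples 1 to 3. Floxed sample 1 stood above the other 5 samples, and the genotypes overlapped. The log2 fold change of *Agpat2* was -0.27 ± 0.70 (SE; 95% interval -1.91 to 1.36), with an adjusted p of 0.777 by limma voom. After the GC correction it was 1.67, with an adjusted p of 0.031, and with the block and the correction 1.68, with an adjusted p of 0.0207 by limma voom. The uncorrected value also turned positive, to 0.43 without floxed sample 1 and 0.22 without H3atKO sample 3. At 58.0%, *Agpat2* had the highest GC content of the 9 genes.

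*Lpin1* encodes lipin 1, the phosphatase that turns phosphatidic acid into diacylglycerol and that also acts with transcription factors in the nucleus (chr12:16535669-16610966, minus strand). It was at 259, 245 and 231 cpm in floxed samples 1 to 3 and at 422, 576 and 459.7 cpm in H3atKO samples 1 to 3. The floxed samples were close to each other, and all H3atKO samples were above them. *Lpin1* rose 1.97-fold (log2 fold change 0.98 ± 0.23 (SE), 95% interval 0.45 to 1.51), with an adjusted p of 0.0347 by limma voom, and by 1.22 on the log2 scale after the GC correction (adjusted p = 0.0182). Of the 6 fits that each left 1 sample out, the fit without floxed sample 3 alone kept the call (adjusted p = 0.023), and the other 5 gave adjusted p-values of 0.0774 to 0.136. Calls over all genes moved in the same fits, from 1410 up with all samples to 1 up without floxed sample 2 and 2729 up without floxed sample 3.

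The last step has both DGAT enzymes, which are unrelated in sequence. *Dgat1*, whose product also esterifies fatty acids coming from lipolysis (chr15:76502015-76511953, minus strand), was at 172, 115 and 156 cpm in floxed samples 1 to 3 and at 181, 215 and 72.4 cpm in H3atKO samples 1 to 3. Both the highest and the lowest value were in H3atKO samples. The log2 fold change of *Dgat1* was -0.04 ± 0.43 (SE; 95% interval -1.03 to 0.96), with an adjusted p of 0.951 by limma voom. That interval, which is not adjusted, takes in changes of up to about 2-fold either way. A call at an adjusted p under 0.05 would have needed a larger change still at this spread. The GC correction gave 1.60 (adjusted p = 0.0567 by limma voom).

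*Dgat2*, whose product is tied to newly made fatty acids (chr7:99153658-99182719, minus strand), was at 238, 170.2 and 69.8 cpm in floxed samples 1 to 3 and at 129, 428 and 484 cpm in H3atKO samples 1 to 3. H3atKO samples 2 and 3 were above all floxed samples, and H3atKO sample 1 was below 2 of them. The log2 fold change of *Dgat2* was 1.09 ± 0.62 (SE; 95% interval -0.36 to 2.53), with an adjusted p of 0.204 by limma voom. The GC-corrected value was 2.69 (adjusted p = 0.0517), and with the block as well 2.70 (adjusted p = 0.029 by limma voom). Uncorrected, it was 0.59 without floxed sample 3 and 1.67 without H3atKO sample 1.

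Levels of different genes were compared per kilobase of exon. *Pck1* was by far the most abundant of the 9, at 822 ± 324 cpm per kb in floxed and 685 ± 375 cpm per kb in H3atKO samples (SD, n = 3). *Gpd1* was next in floxed samples at 97.9 ± 71.3 cpm per kb. It was followed by *Agpat2* (52.5 ± 47.6), *Dgat2* (51.6 ± 27.4), *Aqp7* (51.1 ± 15.6) and *Dgat1* (48.3 ± 9.53), which lay within each other's SD. *Lpin1* (25.3 ± 1.44), *Gpam* (11.1 ± 2.79) and *Gpd2* (7.32 ± 2.77), the 3 upregulated genes, were the lowest in floxed samples on this scale. They have the longest exons of the 9 (9665, 6664 and 6549 bases), and floxed libraries leaned to genes of higher GC content. The part of length and GC content in this rank was not tested. In cpm not divided by length, *Lpin1* averaged 245 in floxed samples, above *Dgat2* at 159. In H3atKO samples they reached 50.3 ± 8.32, 27.0 ± 3.73 and 24.5 ± 4.07 cpm per kb, and *Dgat2*, at 113 ± 61.9 cpm per kb, stood second in mean level after *Pck1*, within its SD of *Gpd1* (59.4 ± 27.4).

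The plot of step shares sets genes of the pathway beside related genes, per kilobase. *Gpd1* and *Gpd2* are grouped there as glycerol 3-phosphate dehydrogenases, although GPD1 makes glycerol 3-phosphate and GPD2 oxidises it, so that group is not 1 step of synthesis. *Lpin1* gave 89.7% ± 1.77 (SD, n = 3) of lipin transcripts in floxed and 94.5% ± 2.35 in H3atKO samples, *Pck1* 99.7% ± 0.0246 and 99.8% ± 0.0936 of both phosphoenolpyruvate carboxykinase genes, and *Aqp7* 99.1% ± 0.459 and 98.0% ± 1.28 of the aquaglyceroporins counted. *Lpin1*, *Pck1* and *Aqp7* were thus the main gene of their step in every sample. *Gpam* gave 20.1%, 16.1% and 18.6% of glycerol 3-phosphate acyltransferase transcripts in floxed samples 1 to 3 and 35.3%, 20.7% and 27.5% in H3atKO samples 1 to 3, with no overlap, and *Gpat3* gave the largest share of that step in all 6 samples. *Gpd2* gave 2.79%, 6.32% and 19.1% of glycerol 3-phosphate dehydrogenase transcripts in floxed samples and 26.7%, 17.5% and 38.6% in H3atKO samples. The groups overlapped through floxed sample 3 and H3atKO sample 2, and *Gpd1* remained the largest share in every sample, from 44.9% to 93.0%. *Dgat2* held 57.8%, 59.4% and 30.7% of DGAT transcripts in floxed samples and 41.4%, 66.3% and 86.9% in H3atKO samples, so neither enzyme led throughout in either genotype.

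**Figure D3:**
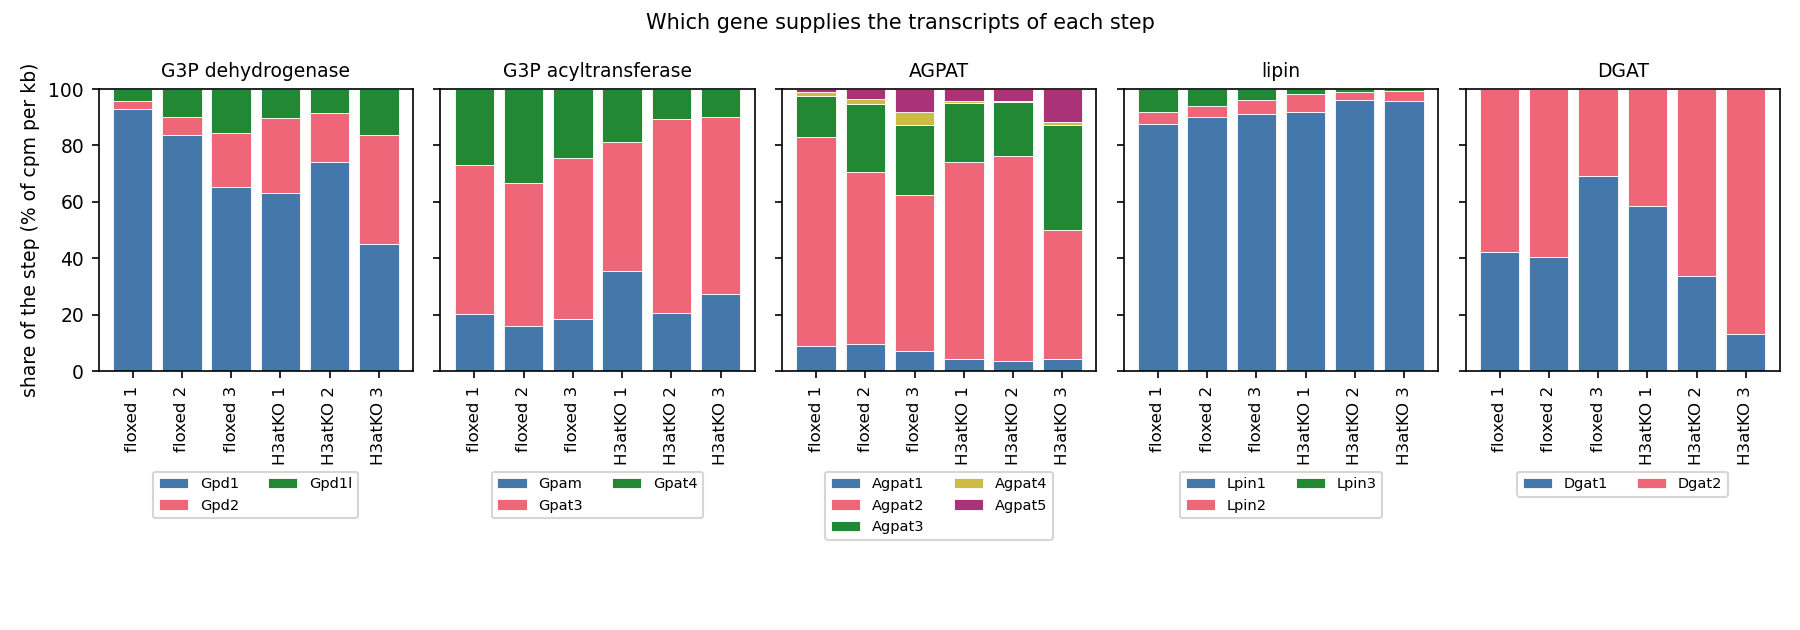
Share of each gene (vertical axis, % of the step's summed cpm per kb) in 5 steps of the pathway, with 1 bar per sample. *Lpin1* fills most of the lipin bar in every sample, *Gpam* has a larger share in each H3atKO sample than in any floxed sample, and the division between *Dgat1* and *Dgat2* differs more between samples than between genotypes.

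A ratio of genes within a sample does not depend on library scaling. For 6 such ratios the genotypes were compared by exact permutation (two-sided), which cannot give a p below 0.1 with 3 samples per group. It can still follow GC content where the genes differ in it. *Agpat2* over *Agpat1*, a broadly expressed relative, was the 1 ratio of the 6 without overlap, at 2.39 ± 0.21 in floxed and 3.44 ± 0.45 in H3atKO samples on the log2 scale (SD, n = 3; exact p = 0.1, adjusted over the 6 ratios 0.4). *Gpd1* over *Gpd2* had log2 values of 3.91, 2.58 and 0.63 in floxed and 0.09, 0.94 and -0.93 in H3atKO samples, a difference of means of -2.34 (exact p = 0.2, adjusted 0.4). The genotypes overlapped, with H3atKO sample 2 above floxed sample 3, while within each replicate number the H3atKO sample was the lower one. After the GC correction the difference was -0.29, and without floxed sample 1 (uncorrected) it was -1.57. *Pck1* over *Pck2* differed by 0.96 (exact p = 0.2, adjusted 0.4), *Dgat2* over *Dgat1* by 1.12 and *Gpam* over *Gpat3* by 0.46 (exact p = 0.4 for both, adjusted 0.48), and *Lpin1* over *Lpin2* by 0.15 (exact p = 0.7). With each sample left out in turn these differences ran from 0.39 (without H3atKO sample 2) to 1.39 for *Pck1* over *Pck2*, from 0.29 (without H3atKO sample 3) to 1.91 (without H3atKO sample 1) for *Dgat2* over *Dgat1* and from 0.10 (without H3atKO sample 1) to 0.78 (without H3atKO sample 2) for *Gpam* over *Gpat3*. All 6 ratios miss the threshold, as the design requires.

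Of 26 other genes of triglyceride synthesis and glycerol handling, 24 were tested (*Gpat2* and *Aqp3* fell below the filter), and 2 rose and 2 fell by limma voom, shares near the 9.42% and 7.07% of all genes. The median log2 fold change was -0.28, against -0.09 over all genes. At an unadjusted p under 0.05, 3 were up and 6 down, against 20.4% and 23.4% of all genes. The largest change was in *Gk*, the glycerol kinase that returns free glycerol to glycerol 3-phosphate (chrX:85701937-85776819, minus strand). *Gk* was at 10.8, 8.39 and 12.2 cpm in floxed samples 1 to 3 and at 383, 99.8 and 108 cpm in H3atKO samples 1 to 3. The lowest H3atKO sample was above every floxed sample, and H3atKO sample 1 stood above the other H3atKO samples. *Gk* rose 15.5-fold (log2 fold change 3.96 ± 0.58 (SE)), with an adjusted p of 0.0149 by limma voom, and by 2.94 on the log2 scale after the GC correction (adjusted p = 0.0472). Without H3atKO sample 1 its log2 fold change was 3.31 (adjusted p = 0.0242 by limma voom), and it missed the threshold without floxed sample 2 (0.071) or H3atKO sample 3 (0.0525). *Lclat1*, a lysocardiolipin acyltransferase, also rose (0.91 ± 0.24, adjusted p = 0.0441), whereas *Plpp3*, a lipid phosphate phosphatase (-1.40 ± 0.32, adjusted p = 0.0335), and *Agpat4*, an acyltransferase at under 6 cpm in every sample (-1.91 ± 0.50, adjusted p = 0.0437), fell. Corrected for GC content, these 3 missed the threshold, at 0.49 for *Lclat1* (adjusted p = 0.0962), -1.16 for *Plpp3* (adjusted p = 0.069) and -0.83 for *Agpat4* (adjusted p = 0.25 by limma voom). After the GC correction *Gk* and *Agpat3* (1.11, adjusted p = 0.0388 by limma voom) were the 2 genes called up and 0 were called down, with 7 up and 4 down at an unadjusted p under 0.05. Of all 14967 genes, that fit called 5.55% up and 3.06% down. At the unadjusted threshold it gave 2522 up and 2110 down over all genes. With the replicate block 4 of the 24 were up and 8 were down, where 24.8% and 28.7% of all genes were called.

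Beside these, 11 genes of lipolysis were counted. At an adjusted p under 0.05 by limma voom, 0 rose and 0 fell (9.42% and 7.07% of all genes). At an unadjusted p under 0.05, 1 was up and 3 were down (20.4% and 23.4% of all genes). By edgeR 0 were up and 2 down, and by DESeq2 1 up and 4 down, where edgeR called 18.4% and DESeq2 23.2% of all genes down. *Pnpla2*, encoding the lipase ATGL that starts triglyceride breakdown, was at 3203, 1258 and 355 cpm in floxed samples 1 to 3 and at 339, 445 and 131 cpm in H3atKO samples 1 to 3, with a log2 fold change of -2.06 ± 0.79 (SE; adjusted p = 0.0909 by limma voom, 0.0088 with the replicate block, and -0.31 with an adjusted p of 0.652 after the GC correction). Without floxed sample 1 its log2 fold change was -1.31. *Lipe*, encoding hormone-sensitive lipase, was at 1490.4, 629 and 135 cpm in floxed and at 67.5, 115 and 27.5 cpm in H3atKO samples. All H3atKO values of *Lipe* were below all floxed values (-3.04 ± 0.88, adjusted p = 0.0524 by limma voom, 0.0044 with the block, and -1.60 with an adjusted p of 0.132 after the GC correction). Under the replicate block 3 of the 11 were down (*Pnpla2*, *Lipe* and *G0s2*, an inhibitor of ATGL) and 1 was up (*Abhd5*, the ATGL activator, 0.64, adjusted p = 0.0249 by limma voom). Over all genes that fit called 28.7% down and 24.8% up, so the share down was near that of all genes and the share up was below it. After the GC correction *G0s2* was at -1.66 (adjusted p = 0.292) and *Abhd5* at 0.20 (adjusted p = 0.556 by limma voom). With block and GC correction together 1 of the 11 was up (*Pnpla3*) and 1 was down (*Lipe*), near the 13.1% and 9.71% of all genes. The difference between the genes of synthesis and those of lipolysis was not tested.

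Change and GC content moved together across all genes, as the plot of change against GC content shows. The 3 upregulated genes had GC contents of 46.5% (*Gpd2*), 48.6% (*Gpam*) and 50.1% (*Lpin1*), and the 6 that were not called ran from 49.7% to 58.0%. The median log2 fold change of all genes tested was 0.30 for a GC content of 46% to 48%, -0.01 for 48% to 50% and -0.40 for 50% to 52%. *Gpd2*, *Gpam* and *Lpin1* were each more than 1 log2 unit above the median for their own GC content. How many other genes of that GC content lay as high was not counted. *Dgat1*, *Dgat2* and *Gpd1* lie where that median was -1.78 and *Agpat2* where it was -2.12, and these 4 genes, at -0.04, 1.09, -0.54 and -0.27, were above it as well. *Aqp7*, at -0.92, was below its median of -0.01.

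**Figure D4:**
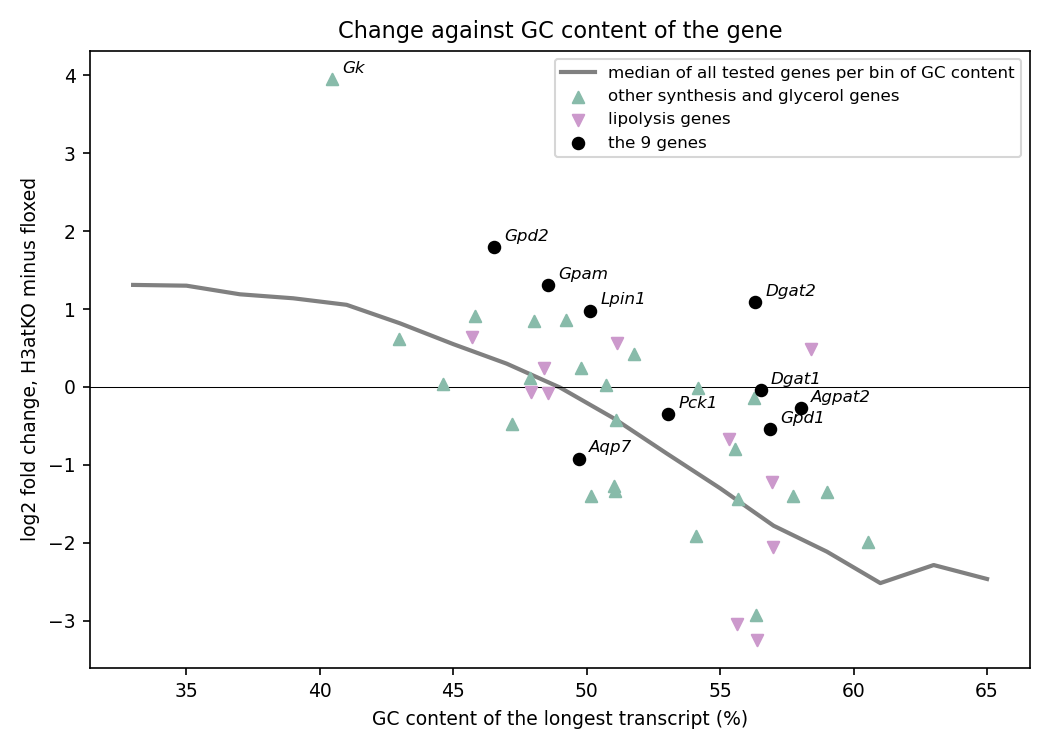
Log2 fold change (H3atKO minus floxed, vertical axis) against the GC content of the longest transcript (%, horizontal axis) for the 9 genes (black), the other genes of synthesis and glycerol handling (green) and genes of lipolysis (purple). The grey line is the median of all tested genes in bins of GC content and falls from above 1 to below -2; 8 of the 9 genes lie above it and *Aqp7* lies below it.

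Markers of the cells in the tissue were summed per sample. The adipocyte markers ran from 13409 to 27861 cpm in floxed and from 15356 to 26512 cpm in H3atKO samples, with 0 of 7 up and 1 down (*Adig*) by limma voom (0 and 2 at an unadjusted p under 0.05), and *Fabp4* alone made up 10341 to 22051 cpm of these sums. *Plin1*, *Cidec*, *Retn*, *Adig* and *Lep* had log2 fold changes of -1.22, -1.49, -1.57, -2.28 and -2.36, of which *Adig* passed the test. GC-corrected, *Plin1* was at 7.68, 7.25 and 6.04 log2 cpm in floxed samples 1 to 3. In H3atKO samples 1 to 3 it was at 6.69, 7.81 and 8.02. On that scale *Cidec* and *Lep* overlapped between the genotypes, and *Retn* and *Adig* were lower in every H3atKO sample than in any floxed sample. *Adipoq*, the gene whose promoter drives Cre, overlapped between the genotypes (1916 to 2647 cpm against 1266 to 2876 cpm). Of the 6 brown adipocyte markers, *Dio2* and *Ppara* rose, and *Cidea*, *Ucp1*, *Cox8b* and *Cox7a1* were not called by limma voom. The sum of the 6 was 26.6 to 89.5 cpm in floxed and 126 to 433 cpm in H3atKO samples. It was highest in H3atKO sample 1, where *Gk* was highest too. *Cidea* ran from 13.4 to 43.1 cpm in floxed and from 49.6 to 173 cpm in H3atKO samples. *Ucp1* was at 12.6, 0.577 and 3.33 cpm in floxed samples 1 to 3. In H3atKO samples 1 to 3 *Ucp1* was at 158, 1.33 and 11.5 cpm, so the genotypes overlapped. *Cox8b* and *Cox7a1* overlapped as well, *Cox7a1* with a log2 fold change of -0.28. None of the 7 lymphocyte markers passed the adjusted or the unadjusted threshold, but their sum was 110 cpm in floxed sample 1 and 276 and 367 cpm in H3atKO samples 1 and 3, against 5.08 to 6.17 cpm in the others. Without those 3 samples, a fit chosen after the data had been seen, *Gpd2*, *Gpam* and *Lpin1* had log2 fold changes of 1.39, 1.66 and 1.31 and adjusted p-values of 0.425, 0.292 and 0.453 by limma voom, with a lone H3atKO sample assumed to vary as the floxed samples do. Macrophage markers summed to 381 to 2144 cpm in floxed samples, highest in sample 3, and 333 to 586 cpm in H3atKO samples (2 of 6 down, *Csf1r* and *C1qa*), and progenitor markers to 1246 to 4033 and 916 to 1511 cpm (1 of 5 down, *Pi16*). GC-corrected values of *C1qa* overlapped (floxed 4.16, 3.32 and 6.37, H3atKO 4.42, 3.64 and 4.23 log2 cpm). Those of *Csf1r* and *Pi16* did not. Endothelial markers summed to 551 to 925 and 373 to 506 cpm (2 of 5 down, *Pecam1* and *Cdh5*). Skeletal muscle markers ran from 648 to 2785 cpm in floxed and from 25.8 to 3715 cpm in H3atKO samples, with 0 of 7 called by limma voom and 4 down at an unadjusted p under 0.05. All 5 epithelial markers were at 0 in a sample and summed to 4.55 cpm at most. The part of these cells in the changes of the 9 genes was not tested.

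Expression across the 6 samples was compared with that of 4109 protein-coding genes, as a description that shares libraries and GC content and has no test. The gene most like *Gpd2* was *Srp72* (Pearson r = 0.999, n = 6), and 829 of the 4109 genes had an r over 0.95 with *Gpd2*. *Gpam* was most like *Prelid3b* (r = 0.992, and 0.990 after the GC correction). *Lpin1* was most like *D5Ertd579e* (r = 0.998), which fell to 0.647 after the correction, and *Aqp7* was most like *Gtf2i* (0.995), which turned to -0.462. *Pck1* was most like *Rbp4* (0.983), *Gpd1* like *Ehd1* (0.992), *Agpat2* like *Sec16a* (0.978), *Dgat1* like *Apoc1* (0.961) and *Dgat2* like *Pcnx* (0.979). Among the 9 genes, *Agpat2* and *Gpd1* were the pair most alike before the GC correction (0.957), followed by *Gpam* and *Lpin1* (0.941). After it, *Gpam* and *Agpat2* were (0.985, from 0.162 before).

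Exons of 3 of the 9 genes overlap a neighbour on the other strand. The libraries were stranded, but the strand setting of the counting is not given in the sources used here, so reads there may not be told apart. The overlaps were 64 bases of *Agpat2* with *Egfl7*, 384 of 2961 bases of *Gpd1* with *Gm16537* and 487 of 6549 bases of *Gpd2* with *A930012O16Rik*.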

How the data were processed

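IngWAT RNA of 3 floxed and 3 H3atKO pools was sequenced from poly(A)-selected stranded libraries. The authors trimmed reads with Cutadapt 1.3, aligned them to GRCm38 with STAR 2.4.2a and deposited HTSeq 0.6.1 counts per Ensembl gene, not normalized. The 5 tallies of reads given to no gene (37.3% to 44.0% of counted and tallied alignments in floxed, 50.3% to 51.7% in H3atKO samples) were kept apart. PCR copies were not marked, and 3 counts correspond to 0.0659 to 0.190 cpm, a floor for counting error only. GENCODE M21 gave symbols, exon lengths and GC content (46005 of 46517 identifiers matched).

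Groups came from the labels. Following the study's methods, the 14967 genes that reached 1 cpm in any sample were scaled by TMM (edgeR 4.0.16) and compared by limma 3.58.1 voom in R 4.3.3, with Benjamini-Hochberg adjusted p over all genes, called under 0.05. The script was tested on simulated counts, which held no trend with GC content and no pairing of samples. That test does not bear on either. In the GC correction, the trend with GC content (robust loess, span 0.3) was subtracted per sample. Residuals of same-numbered samples correlated at 0.510, 0.389 and 0.264, and the numbers were taken to pair samples for the block. The labels do not say what the numbers mark, and samples of different numbers were not correlated. The correlation with GC content fell with the number in both genotypes. It was 0.800, 0.623 and 0.0969 in floxed samples 1 to 3 and -0.433, -0.504 and -0.711 in H3atKO samples 1 to 3. Whether the numbers pair samples was thus not settled, and p-values with the block depend on it. Ratios used a pseudocount of 0.5 counts.

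The 9 genes, the lists (26 of synthesis and glycerol handling, 11 of lipolysis, 8 of cell markers) and the tests were chosen with earlier results of these data known. Named were the 9 genes, *Hdac3*, list genes called in the TMM fit, *Gk*, *Pnpla2* and *Lipe*, and for each of the 9 the protein-coding gene with a mean of at least 5 log2 cpm most like it. *G0s2*, *Abhd5*, *Pnpla3*, adipocyte and brown adipocyte markers not called, *Agpat3*, *Adipoq* and the relatives in step shares and ratios were named after their values were seen. Alternatives were edgeR, DESeq2 1.42.0, library sizes or RLE factors, no low-count filter or a minimum of 10 counts per sample, sample weights, the replicate block, the GC correction, both together, no mitochondrial genes, and each sample left out.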

Additional observations from a re-analysis of the deposited data

How the results depend on the processing

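Of the 9 genes, *Gpam*, *Lpin1* and *Gpd2* kept their direction in all 18 alternatives tried, as did *Dgat2* (up) and *Aqp7* (down). *Agpat2* turned from -0.27 to 0.13 with sample weights, 1.67 with the GC correction, 1.68 with the replicate block and GC correction and 1.12 without the 3 samples high in lymphocyte markers, and ranged from -0.85 to 0.43 with each sample left out in turn. *Dgat1* turned from -0.04 to 0.083 (edgeR), 0.14 (DESeq2), 0.020 (RLE factors), 0.46 (weights), 1.60 (GC), 1.58 (block and GC) and 0.71 (without those 3 samples), and ranged from -0.38 to 0.45. *Gpd1* turned to 1.17, 1.19 and 0.73 and *Pck1* to 0.53, 0.52 and 0.73 under the last 3 of these, and they ranged from -1.12 to 0.018 and from -0.79 to 0.14 with a sample left out. The log2 ratio of *Lpin1* to *Lpin2* ranged from -0.10 to 0.49 with a sample left out. Counts of the 9 genes up (3) went to 0 with library sizes alone, 6 with block and GC, 0 without the 3 samples and 0 to 3 with a sample left out, and of those down (0) to 2 with library sizes, 1 with weights, 1 with the block and 0 to 1 with a sample left out. Without the GC correction, the block changed no other call among the 9. Of the 26 related genes, those up (2) became 4 with DESeq2, the block, or block and GC, 1 with library sizes or no filter, 6 with weights, 0 without the 3 samples and 0 to 2 with a sample left out, and those down (2) became 4 with edgeR, 8 with DESeq2 or the block, 9 with library sizes, 6 with weights, 0 with GC or without the 3 samples and 0 to 9 with a sample left out. Lipolysis genes up (0) became 1 with DESeq2, weights, the block, or block and GC, and those down (0) 2 with edgeR, 4 with DESeq2, 5 with library sizes or weights, 1 with at least 10 counts in every sample, 3 with the block, 1 with block and GC and 0 to 5 with a sample left out. Calls over all genes moved under the same settings, as given above for most of them. From 1410 up and 1058 down of 14967 genes they went to 4003 and 4440 with weights and to 306 and 5667 with library sizes. They were 1092 up and 1327 down of 25279 genes with no filter, and 1575 and 1864 of 12466 with at least 10 counts in every sample. With a sample left out they ran from 1 up and 0 down (floxed sample 2) to 2729 and 3828 (floxed sample 3). The causes were not tested.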
